A study of Homo sapiens with 8 samples.

Results

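After siRNA against the long noncoding RNA Uc003xsl.1, 1043 broad NKRF peaks were called in only 1 of the 2 knockdown libraries, 624 of the 7442 autosomal peaks of replicate 1 (8.38%) and 419 of the 4384 of replicate 2 (9.56%). Peaks were selected on length and overlap: a peak was taken when it was at least 500 bp long, lay on chromosomes 1 to 22 and shared no base with any peak of the other knockdown list. The 4 deposited lists held 20386 peaks in all, so these regions are a small part of the series. Both measures come from the peak calls themselves, so the counts above describe the choice. Of the other peaks of 500 bp or more on these chromosomes, 85 in replicate 1 and 62 in replicate 2 overlapped a peak of the other list and are called shared broad peaks here. The 6733 and 3903 autosomal peaks under 500 bp are called narrow peaks.

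The peaks come from chromatin immunoprecipitation followed by sequencing (ChIP-seq), in which DNA bound by a protein is pulled down with an antibody and sequenced, with an antibody against NKRF. The cells were MDA-MB-231-P3, a highly metastatic subline of the human breast cancer line MDA-MB-231, which is triple-negative, transfected with Lipofectamine 2000 and either a control siRNA or si-Uc003xsl.1. Each condition had 2 NKRF libraries and 2 input libraries, and the labels do not say whether replicates were separate cultures. Both conditions share the line and the transfection, and no time after transfection is given. ChIP-seq does not measure expression, so neither the identity of the cells nor the loss of Uc003xsl.1 could be checked from RNA levels, and none of 12 breast epithelial or 6 mesenchymal marker genes had one of these peaks within 1 kb of an end, where 4.47% of all protein-coding genes did, so a count of 0 among so few genes is near that share.

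NKRF, the NF-kB repressing factor, is a DNA-binding protein first described as a silencer of NF-kB target genes such as those for interferon beta, inducible nitric oxide synthase and interleukin 8. Much of the protein resides in the nucleolus, where it works with the exonuclease XRN2 and the helicase DHX15 in ribosomal RNA processing. Most mammalian housekeeping promoters lie in CpG islands, stretches of GC-rich DNA with many CpG dinucleotides around the transcription start site, and many of them carry GC boxes, the binding motif of SP1 and related factors. A peak caller such as MACS marks stretches where more sequence tags fall than expected from the input and merges neighbouring stretches, so a long peak covers a long run of raised tag density.

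Promoters under the broad peaks with the most tags are printed because these regions mostly covered start sites and their sequence composition is one of the features the choice did not use. Each line gives the 250 bases before a RefSeq start site, 5′ to 3′ on the gene's strand, for a start site whose whole 300-base window lay inside a broad one-list peak. Capitals mark GC boxes (GGGCGG, or CCGCCC on the other strand) and CCAAT boxes (CCAAT, or ATTGG on the other strand). The first 3 belong to replicate 1, the next 3 to replicate 2, and MNX1, which had a broad peak in each list, is shown for the window inside that of replicate 1. Sequences and positions are from RefSeq on GRCh38.p14: ESYT2 at chr7:158829510-158829759 on the minus strand, ANKRD33B at chr5:10563820-10564069 on the plus strand, PHF19 at chr9:120877189-120877438 on the minus strand, TMEM250 at chr9:136118876-136119125 on the minus strand, DRAP1 at chr11:65919176-65919425 on the plus strand, TGIF2 at chr20:36573347-36573596 on the plus strand and MNX1 at chr7:157010664-157010913 on the minus strand.
ESYT2: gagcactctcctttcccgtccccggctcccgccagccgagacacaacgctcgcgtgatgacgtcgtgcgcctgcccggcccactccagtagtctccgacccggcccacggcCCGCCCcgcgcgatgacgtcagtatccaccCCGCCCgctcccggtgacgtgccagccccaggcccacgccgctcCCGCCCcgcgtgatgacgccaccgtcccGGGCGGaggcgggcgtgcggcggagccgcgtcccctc
ANKRD33B: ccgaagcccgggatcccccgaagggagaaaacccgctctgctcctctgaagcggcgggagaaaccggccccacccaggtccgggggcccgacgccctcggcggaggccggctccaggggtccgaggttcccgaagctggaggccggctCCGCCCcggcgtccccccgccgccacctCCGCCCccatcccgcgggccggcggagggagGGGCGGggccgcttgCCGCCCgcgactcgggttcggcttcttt
PHF19: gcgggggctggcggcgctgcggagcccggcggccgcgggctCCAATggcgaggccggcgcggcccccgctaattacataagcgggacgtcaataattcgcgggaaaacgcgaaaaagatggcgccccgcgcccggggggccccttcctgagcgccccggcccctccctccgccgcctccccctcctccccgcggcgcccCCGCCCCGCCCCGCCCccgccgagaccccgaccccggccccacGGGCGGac
TMEM250: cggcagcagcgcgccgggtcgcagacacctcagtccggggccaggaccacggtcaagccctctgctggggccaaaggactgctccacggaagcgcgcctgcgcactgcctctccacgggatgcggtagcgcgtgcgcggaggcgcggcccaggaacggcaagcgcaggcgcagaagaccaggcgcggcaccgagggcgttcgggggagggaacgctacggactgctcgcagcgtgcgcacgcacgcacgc
DRAP1: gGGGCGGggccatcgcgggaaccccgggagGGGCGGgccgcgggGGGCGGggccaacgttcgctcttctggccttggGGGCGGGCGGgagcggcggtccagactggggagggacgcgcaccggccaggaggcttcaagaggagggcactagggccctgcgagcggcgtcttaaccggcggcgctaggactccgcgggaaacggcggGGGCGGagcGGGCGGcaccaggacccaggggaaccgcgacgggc
TGIF2: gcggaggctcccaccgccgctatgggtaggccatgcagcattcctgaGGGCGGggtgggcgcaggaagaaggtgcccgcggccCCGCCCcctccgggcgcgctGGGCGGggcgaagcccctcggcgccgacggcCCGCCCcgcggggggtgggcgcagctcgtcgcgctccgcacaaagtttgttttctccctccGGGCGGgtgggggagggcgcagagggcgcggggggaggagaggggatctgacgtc
MNX1: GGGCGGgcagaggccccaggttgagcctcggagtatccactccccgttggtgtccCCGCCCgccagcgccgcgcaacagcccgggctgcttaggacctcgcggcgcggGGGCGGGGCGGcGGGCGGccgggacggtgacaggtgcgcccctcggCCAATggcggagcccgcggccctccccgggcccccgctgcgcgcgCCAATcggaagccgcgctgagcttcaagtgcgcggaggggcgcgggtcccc
The DRAP1 stretch held 7 GC boxes, TGIF2 and MNX1 held 5 each, and ESYT2, ANKRD33B and PHF19 held 4 each, with overlapping boxes counted separately. The TMEM250 stretch held 0, although 73.2% of its bases were G or C. CCAAT boxes were found only in PHF19 (1) and MNX1 (2) among these 7.

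The broad one-list peaks were 500 to 2559 bp long in replicate 1, with a median of 696 bp, and 500 to 2126 bp in replicate 2, with a median of 661 bp. They reached 1000 bp in 100 and 40 cases. The authors' caller counted 21 to 184 tags in a peak of replicate 1 (median 42) and 16 to 568 in replicate 2 (median 34). Longer peaks held more tags, with a Spearman correlation across peaks of 0.884 over 624 peaks and 0.868 over 419, as both counts grow with the same stretch of DNA. Per kilobase the median was 59.0 tags in replicate 1 (range 39.7 to 106) and 49.3 in replicate 2 (range 31.1 to 859), and over both lists together it was 54.8. The order turned when depth was taken into account: after filtering, replicate 1 had 18890698 tags and replicate 2 had 11366267, and the medians became 3.12 and 4.34 tags per kb per 1000000 filtered tags. Narrow peaks (2.30 and 3.38) and shared broad peaks (3.13 and 4.43) had the same order, so it was not particular to these regions.

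The broad one-list peaks held more tags per kb than narrow peaks but a lower fold over input. Narrow peaks had a median of 43.5 tags per kb in replicate 1 and 38.5 in replicate 2, against the 59.0 and 49.3 above. The authors' fold over input had a median of 4.77 in replicate 1 and 5.02 in replicate 2, below the 10.6 and 11.1 of the narrow peaks of the same lists. The score of −10 log10 p was slightly higher, at 52.8 and 49.6 against 44.0 and 46.7. Shared broad peaks had median folds of 4.71 and 4.975 and median scores of 54.7 and 52.8. The lower fold and higher score were thus not particular to the one-list peaks. Narrow peaks held few tags, with a median of 7 and a minimum of 6 in each list. Those at gene ends had medians of 16 and 14 tags and folds of 7.27 and 7.33. The part of tag count and of the caller's threshold in the fold difference was not tested. In all, the broad peaks covered 483 kb and 306 kb and took 29291 and 16391 tags, which is 0.155% and 0.144% of the filtered tags. The false discovery rate that the caller attached to each peak had a median of 30.4% in replicate 1 (range 10.0 to 33.3) and 11.4% in replicate 2 (range 9.68 to 43.6). None of the 1043 peaks had a rate of 5% or less in the deposited lists, and 18 (1.73%) had 10% or less. Narrow peaks were similar, with medians of 30.8% and 10.9%. Of the 10636 narrow peaks, 1 had 5% or less and 240 (2.26%) had 10% or less. Among the 147 shared broad peaks these counts were 0 and 3 (2.04%).

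**Figure D1:**
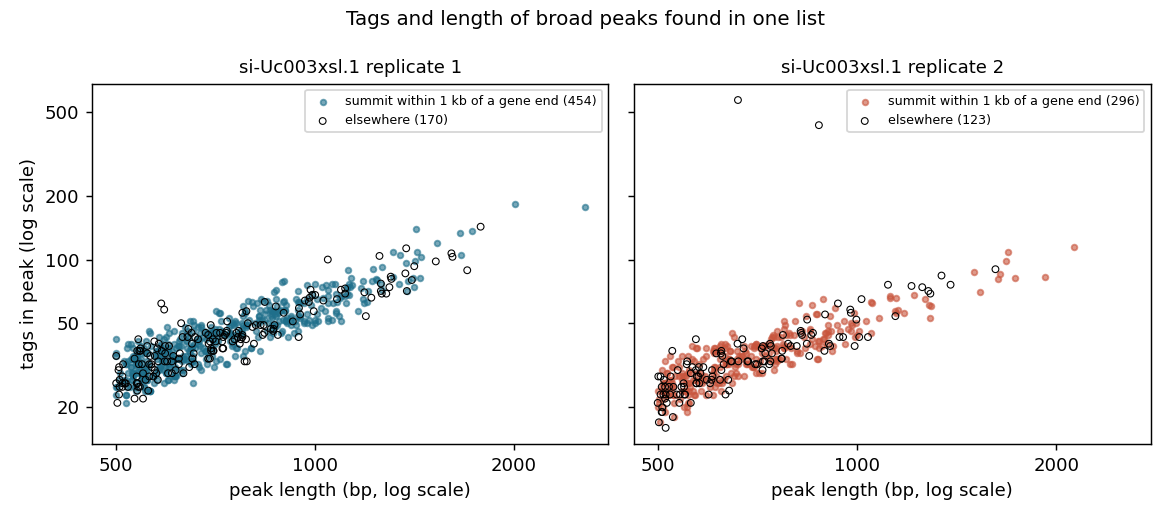
Tags in each broad one-list peak (vertical, log scale) against its length in bp (horizontal, log scale), by library; filled points have a summit within 1 kb of a protein-coding gene end, open points do not. Tags rise with length in both libraries, and 2 open points of replicate 2, with 568 and 432 tags, stand above the rest.

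Around the length limit the values were continuous. In replicate 1 the shortest peaks inside it were those named by TMEM145 (500 bp, 25 tags), IRF1 (500 bp, 35 tags), which encodes an interferon-regulated transcription factor, and ACTR6 (501 bp, 35 tags). The one-list peaks just outside it were those at ST14 (499 bp, 23 tags), PTPRN2 (499 bp, 21 tags) and SIGIRR (498 bp, 35 tags). In replicate 2 the peaks of RASGEF1A (500 bp, 21 tags), PET117 (500 bp, 20 tags) and MKX (501 bp, 28 tags) stood inside, and those of TALDO1 (499 bp, 27 tags), ZNF385B (498 bp, 26 tags) and PABPN1L (497 bp, 19 tags) outside.

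Most broad one-list peaks sat at the ends of protein-coding genes, and this was so in each library. The summit, the position of highest tag density, lay within 1 kb of an end in 454 of 624 peaks of replicate 1 (72.8%, exact Clopper-Pearson 95% interval 69.1 to 76.2) and in 296 of 419 of replicate 2 (70.6%, 66.0 to 74.96). Together the lists gave 750 of 1043, or 71.9%. Intervals cover counting error only. Of the narrow peaks in the same lists, 10.1% and 15.9% lay that close. Broad peaks thus exceeded narrow ones by 62.6 and 54.8 percentage points, on average 58.7 ± 5.56 (SD, n = 2 libraries). The direction was the same in 2 of 2 libraries, and the exact two-sided permutation p was 0.5, the smallest that 2 libraries allow.

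The median distance from summit to nearest end was 360.5 bp in replicate 1, 409 bp in replicate 2 and 377 bp over both. Narrow peaks lay at a median of 34859 and 21783 bp. Within 100 bp of an end were 19.6% and 17.9% of the broad one-list peaks, and within 10 kb were 89.6% and 88.8%. Of the rest of the broad peaks, 19.2% and 22.2% of each list had the summit inside a protein-coding gene away from its ends, and 8.01% and 7.16% lay between genes. More than 100 kb from any end were 5 peaks in each list.

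Among all peaks found in 1 list, the gene-end share was higher in longer peaks from 150 bp up to and across the limit of 500 bp. Under 150 bp it was 3.18% in replicate 1 and 7.02% in replicate 2. From 150 to 199 bp, the bin with the most peaks in each list, it was 4.09% and 4.81%, higher than below 150 bp in replicate 1 and lower in replicate 2. From 200 to 299 bp it was 11.1% and 16.3%. From 300 to 399 bp it reached 41.0% and 42.8%, and from 400 to 499 bp 55.3% and 54.6%. Above the limit the bins ran from 65.7% to 78.8% without a further steady rise, and the peaks of 1000 bp or more stood at 72.0% and 70.0%. Broad one-list peaks exceeded one-list peaks of 300 to 499 bp by 26.5 and 23.6 points (mean 25.03 ± 2.02 SD, n = 2, exact permutation p = 0.5).

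**Figure D2:**
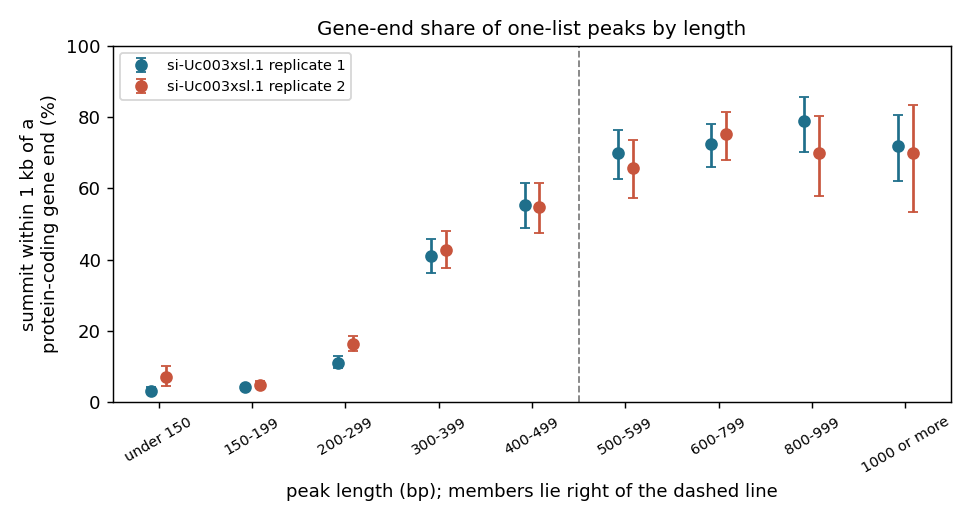
Share of peaks found in 1 knockdown list whose summit lay within 1 kb of a protein-coding gene end (vertical, %) by peak length (horizontal, bp), with exact 95% intervals for counting error. The share is between 3.18% and 7.02% below 200 bp in both libraries and climbs from there to between 65.7% and 78.8% right of the dashed line at 500 bp.

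Broad peaks that overlapped a peak of the other list had gene-end shares close to those of the one-list peaks. They were 71.8% of 85 in replicate 1 and 69.4% of 62 in replicate 2, so that the one-list peaks differed from them by 0.992 and 1.29 points (mean 1.14 ± 0.211 SD, n = 2, exact permutation p = 0.5). The exact intervals of the shared peaks, 61.0 to 81.0 and 56.3 to 80.4, leave room for differences of several points either way. Their median tags per kb, 59.2 and 50.3, also lay near the 59.0 and 49.3 of the one-list peaks. Away from gene ends the placement was less alike, in the same direction in both libraries: 2.35% and 1.61% of the shared broad peaks lay between genes, against 8.01% and 7.16% of the one-list peaks, and 25.9% and 29.0% lay inside genes, against 19.2% and 22.2%. With 2 and 1 shared peaks between genes, these shares are imprecise, and the exact permutation p was 0.5 for both measures.

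At gene ends the summit mostly lay near the start of a gene, in shared broad peaks as well. Of the gene-end peaks, 378 and 245 could be sorted by strand from RefSeq start sites. In 371 (98.1%) and 241 (98.4%) of them a first (5′) end lay within 1 kb of the summit. A peak with both a first and a last end within 1 kb was counted as first. This can raise the share where 2 or more genes have an end nearby, which was more frequent at broad one-list peaks than at narrow ones. For narrow gene-end peaks the first-end shares were 80.04% and 86.3%, a difference of 18.1 and 12.03 points (mean 15.1 ± 4.30 SD, n = 2, exact permutation p = 0.5). For shared broad peaks they were 53 of 53 and 35 of 35, or 100% in each library. A further 76 and 51 gene-end peaks had no known first end within 1 kb and a gene of unknown strand there.

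Summits fell slightly inside the genes. Among the 419 and 269 broad one-list peaks with a summit within 1 kb of a start site, the median offset was 69 bp and 96 bp downstream, and 60.9% and 63.9% lay on the transcribed side. Narrow peaks near start sites were similar, with median offsets of 58 bp and 128 bp downstream and 58.0% and 65.8% on the transcribed side. The start site itself was inside the peak in 83.3% and 78.8% of the broad one-list cases, against 39.2% and 37.4% for narrow peaks. Shared broad peaks were similar, at 79.4% and 78.0%. Longer peaks include a nearby site more readily. Ends of at least 2 protein-coding genes stood within 1 kb of the summit in 12.5% and 9.07% of the broad one-list peaks, as at paired genes read from opposite strands, against 1.04% and 1.69% of narrow peaks and 7.06% and 4.84% of shared broad peaks. Much of the gap to narrow peaks repeats the gene-end share: counted among gene-end peaks alone, it was 78 of 454 and 38 of 296 broad one-list peaks against 70 of 681 and 66 of 619 narrow ones.

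**Figure D3:**
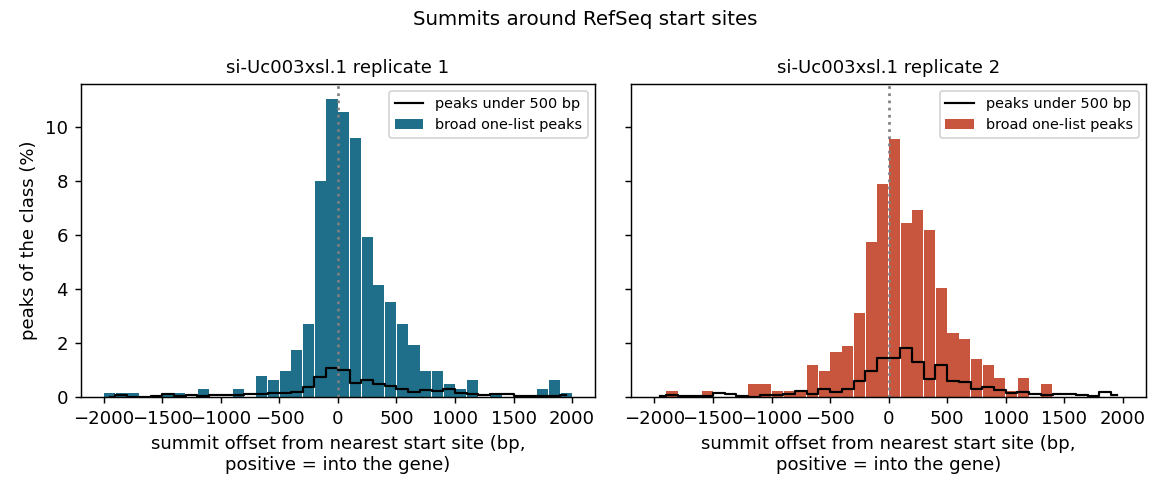
Offset of peak summits from the nearest RefSeq start site (horizontal, bp, positive into the gene) as a share of the class per 100-bp bin (vertical, %), by library; bars are broad one-list peaks and the line is narrow peaks. The bars crowd around the start site with medians of 69 and 96 bp downstream.

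In replicate 1 the 6 peaks with the most tags all lay at or inside protein-coding genes. The peak at the start of ESYT2, which encodes a tether between endoplasmic reticulum and plasma membrane, spanned chr7:158828308-158830313 (GRCh38) and held 184 tags in 2006 bp. Its summit was inside the gene, 685 bp from the end, with a fold of 3.34 and a score of 103. The longest peak of the list, at ANKRD33B (chr5:10563111-10565669, 2559 bp, 177 tags), likewise had its summit inside the gene, 991 bp from the first end. The promoter printed for each of these genes above lies within the peak.

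PHF19, a Polycomb-associated reader of histone methylation, carried 143 tags in 1780 bp (chr9:120875917-120877696). Its summit lay 20588 bp from the nearest gene end but 949 bp downstream of an inner start site, the one whose upstream sequence is printed above. ZNF786, a zinc finger gene, had 140 tags in 1424 bp (chr7:149090193-149091616), at 98.3 tags per kb the second densest of the list, with the summit 17 bp outside its first end. ZFAND3 had 136 tags (chr6:37818810-37820536, 618 bp inside). EZH2, which encodes the histone methyltransferase of Polycomb repressive complex, had 134 (chr7:148883699-148885354, 648 bp upstream). None of these 6 overlapped a peak in the control lists, while overlap with a peak of replicate 2 was barred by the choice. Tag counts at the same places in the other libraries were not used here, since the lists give tags only within called peaks.

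By density the top of replicate 1 was an intergenic peak at chr1:144103250-144103835, with 62 tags or 106 per kb, and its summit was 49264 bp upstream of the closest protein-coding gene. A peak of the replicate 2 list lay 494 bp away from it. After ZNF786 came a peak inside KCNJ5, which encodes an inwardly rectifying potassium channel (chr11:128905094-128905685, 98.0 per kb, 772 bp from an end of the antisense gene KCNJ5-AS1). The next, in PRKAG2, a subunit gene of AMP-activated kinase (chr7:151631660-151632705, 95.6 per kb), had its summit 40 bp from an inner start site although 76066 bp from the gene's ends.

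Replicate 2 was led by a pair of peaks with far more tags than any other of its broad one-list peaks. They lay 3429 bp apart at chr16:46390272-46390932 and chr16:46394361-46395236, between genes, with 568 and 432 tags or 859 and 493 tags per kb. The nearest protein-coding gene end, that of SHCBP1, was 187903 and 183802 bp away. Their fold over input was only 2.23 and 4, and their scores were 62.1 and 84.1. The fold of 2.23 was the lowest among the members of both lists. Such values were also found below the length limit, where one-list peaks of 300 to 499 bp in replicate 2 reached 748 tags, 1585 tags per kb and a fold as low as 2.05, each the extreme of that class. Without these 2 peaks the share at gene ends over both lists was 72.0% and the median density 54.8 tags per kb.

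The remaining leaders of replicate 2 resembled those of replicate 1. TMEM250 had the longest peak (chr9:136117329-136119454, 2126 bp, 115 tags), with the summit 283 bp upstream of its first end, a fold of 6.55 and a score of 108. DRAP1, which encodes a repressor of RNA polymerase II initiation, had 108 tags in 1689 bp (chr11:65918717-65920405), and the same peak covered the end of C11orf68. TGIF2, a homeobox repressor of TGF-beta responses, had 98 tags in 1679 bp (chr20:36573234-36574912). TP53INP2, an autophagy gene, had 90 tags in a peak inside the gene (chr20:34708677-34710295), 3912 bp from an end.

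CPNE1, a copine gene whose first end is shared with RBM12, had 62 tags in 818 bp (chr20:35664522-35665339) or 75.8 per kb. BBC3, which encodes the cell death protein PUMA, had 73.6 per kb (chr19:47230222-47230792, score 119), and its summit was 2424 bp from an end. CDC42BPB, which encodes a kinase acting downstream of CDC42, had 83 tags over 1926 bp at its first end (chr14:103056446-103058371). SKIL, a repressor of SMAD signalling, had 82 over 1730 bp (chr3:170356719-170358448), with the summit 932 bp upstream. Of the 4 longest peaks in each list, 7 of the 8 had their summit within 1 kb of a gene end, all but that of PHF19.

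Some of the peaks farthest from protein-coding gene ends were near other start sites. The farthest of replicate 1, in NAV2, was 367447 bp from an end of the gene, yet at an offset of −154 bp from an inner start site, which is upstream of it. The next, nearest to ANKRD55 at 247847 bp, lay 592 bp from an end of the noncoding gene LINC01948. The third, nearest to PLXNA4 at 177744 bp, had no such site within 1 kb. In replicate 2 the farthest, at chr9:63816959-63817463, was 771197 bp from the gene end nearest to it, and the pair on chromosome 16 followed.

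Across all peaks away from protein-coding ends, 34 of 170 in replicate 1 (20%) and 22 of 123 in replicate 2 (17.9%) had the summit within 1 kb of an end of a long noncoding RNA gene. Another start site of a protein-coding gene lay within 1 kb in 56 (32.9%) and 35 (28.5%). Peaks at ends and away from them were of like size: median lengths were 697 against 695 bp in replicate 1 and 667.5 against 641 bp in replicate 2, and median densities 59.6 against 57.7 and 49.8 against 48.4 tags per kb.

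The genes themselves were almost all different between the lists. At least 1 broad one-list peak lay within 1 kb of an end of 530 protein-coding genes in replicate 1 (2.77% of 19126) and of 331 in replicate 2 (1.73%). In either list it was 855 genes (4.47%) and in both 6 (0.0314%), which is 1.13% of the first list's genes and 1.81% of the second's. Since overlapping peaks were left out by the choice, a gene could enter both counts only with peaks at separate places. Counting any peak of the other list, 16 of the 530 genes (3.02%) and 10 of the 331 (3.02%) had one at an end, where 5.44% and 6.78% of all 19126 genes did. The lack of overlap that chose the peaks lowers these shares.

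At the 6 genes the peaks of the 2 lists adjoined each other. At MNX1, which encodes a homeobox factor of motor neurons and pancreas, replicate 1 had 120 tags at chr7:157010255-157011785 and replicate 2 had 44 tags at chr7:157009214-157010214, with 41 bp from the edge of one peak to that of the other. At C11orf96 the counts were 79 and 37 tags with 356 bp between. At PRDM10, a zinc finger regulator, they were 36 and 43 tags with 446 bp between, and at GFPT2, an enzyme of hexosamine synthesis, 33 and 33 tags with 282 bp between. ABHD15 and TP53I13 are neighbours and share 1 peak of each list, with 28 and 26 tags and 13 bp between. In 4 of these 5 places replicate 1 had at least as many tags, in a library with more filtered tags.

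Some members of one list lay near peaks of the other without overlap. A peak of the other knockdown list lay within 1 kb of 20 broad peaks of replicate 1 and 16 of replicate 2, within 10 kb of 64 and 48, and within 100 kb of 311 and 245. These are 3.21% and 3.82% within 1 kb, 10.3% and 11.5% within 10 kb and 49.8% and 58.5% within 100 kb. Narrow peaks, among them some that overlap the other list, gave 1.90% and 3.89%, 5.55% and 10.5%, and 32.6% and 53.7%. Another broad one-list peak of the same list stood within 10 kb of 26 and 22.

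Neither control list had a peak at any of these regions. Of the 1043, 0 overlapped a peak of control replicate 1 and 0 one of control replicate 2, and the exact interval allows up to 0.353%. Narrow peaks also rarely overlapped them, in 10 and 1 of 6733 cases in replicate 1 and 4 and 1 of 3903 in replicate 2, so the count of 0 is near the share of narrow peaks. Within 10 kb of a control replicate 1 peak were 14 peaks of replicate 1 (2.24%) and 4 of replicate 2 (0.955%). Of the narrow peaks, 5.29% and 5.10% lay that close. Within 10 kb of a control replicate 2 peak were 1 (0.160%) and 7 (1.67%), against 0.861% and 0.564% of narrow peaks. The broad share was thus lower in 3 of these 4 comparisons and higher for replicate 2 beside control replicate 2. The control lists held no peak of 500 bp or more at all: their longest were 458 and 382 bp. On chromosomes 1 to 22 they had 0 and 19 peaks of 300 bp or more, none of the 19 at a protein-coding gene end, and of all their peaks there 101 of 7380 (1.37%) and 23 of 896 (2.57%) had the summit within 1 kb of one. Control replicate 1 had 19335431 filtered tags, slightly more than the deeper knockdown library, and was called with the same program and threshold. Its fragment length d, as estimated by the caller, was 49 bp, against 60 and 67 bp in the knockdown libraries. The tag size was 50 bp in each of these libraries and the stated library fragment was 250 bp, so every d lay near the tag size. Control replicate 2 had 8250475 tags and was called with another program version and threshold. The part of calling, fragment length and knockdown in the difference was not tested, and absence from a list is not absence of tags.

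Genes were also read by function, from lists chosen for this tissue and factor, and counts are given beside the 2.77% and 1.73% of all genes. Of 29 genes for NF-kB subunits, inhibitors and kinases, 0 had a broad one-list peak at an end in replicate 1 and 3 did in replicate 2. They were NFKBIE, an inhibitor of NF-kB (47 tags in 848 bp at chr6:44256883-44257730, a peak nearer to the neighbouring gene SLC35B2), BCL3, a nuclear cofactor of NF-kB (29 tags in 656 bp), and TRAF3, an adaptor that restrains the noncanonical pathway (27 tags in 524 bp). CXCL8, IFNB1 and NOS2, the 3 genes known from the literature as NKRF targets, had none in either list. Among 22 genes of nucleolar RNA processing, including XRN2 and DHX15, only FBL, the ribosomal RNA methyltransferase fibrillarin, had one (33 tags, 49 bp upstream, replicate 1).

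Chromatin regulators had 5 of 61 genes in replicate 1 and 4 in replicate 2, 9 different genes. In replicate 1 these were EZH2 above, HDAC3, a histone deacetylase whose peak was shared with RELL2 (82 tags in 1405 bp), KMT2C, a histone methyltransferase (72 tags in 872 bp, score 91.9), KDM3B and SETD1A. In replicate 2 these were KMT2A (44 tags in 746 bp), DNMT3A, KAT2B and KDM4B. The cytoskeleton list had 4 of 49 in each: ACTG1 (98 tags in 1416 bp), cofilin gene CFL1 (96 in 1375 bp), cortactin gene CTTN (76 in 1040 bp) and kinesin gene KIF1C (62 in 1187 bp) in replicate 1, and ACTN1, PLEC, RDX and SPTAN1 in replicate 2. These shares, 6.56% to 8.20%, describe small lists, and no test of them was made.

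Of 38 Wnt and Hippo genes, replicate 1 had 4 and replicate 2 had 1. TEAD3, a DNA-binding partner of YAP, had 78.1 tags per kb over 1344 bp (chr6:35496153-35497496, 385 bp into the gene), TNKS2 had 63.3 tags per kb, the Hippo scaffold gene SAV1 had 64.3 and TEAD4 had 53.4. The 1 gene of replicate 2 was CTNNB1, which encodes beta-catenin. Of 27 genes of the TGF-beta and SMAD pathway, BMPR1A, a receptor gene, had 46 tags in replicate 1, and SKIL was the 1 gene of replicate 2. Among 26 genes of mesenchymal transition and invasion the integrin genes ITGB3 (45 tags, replicate 1) and ITGAV (39 tags, replicate 2) had one. Of 39 cell cycle genes, WEE1, the kinase gene that restrains mitotic entry (82 tags, score 91.9), and CCND3 (33 tags) had one in replicate 1 and 0 in replicate 2.

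Larger gene families are read against the same background. Zinc finger genes named ZNF had 16 of 505 in replicate 1 (3.17%) and 4 in replicate 2 (0.792%), led by ZNF786 and ZNF212 (73 tags). Solute carriers had 11 and 5 of 372, among them SLC12A2, a sodium, potassium and chloride cotransporter gene (56 tags in 718 bp, score 112), and SLC22A4 (77 tags, summit 2 bp inside the gene). Trafficking genes had 7 and 9 of 195, such as RAB35 (77 tags, replicate 1) and STX16 (62 tags, replicate 2), and ubiquitin ligase and protease genes 7 and 7 of 330, such as FBXW5 (76 tags).

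Cytosolic ribosomal protein genes had 2 and 1 of 77, namely RPL10A (92 tags in 1261 bp), RPL13 (53 tags) and RPS21 (55 tags), and mitochondrial ones 4 and 1 of 77. RNA-binding and splicing genes had 3 and 2 of 138, with HNRNPU at 74 tags, and MAP kinase cascade genes 1 and 0 of 52, MAPK14 with 65 tags. No peak was at an end of the 89 respiratory chain genes, 74 histone genes, 40 clustered homeobox genes, 63 protocadherins, 55 keratins or 391 olfactory receptors in either list.

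The chromosomes carried these peaks unevenly, and in a like order in both libraries. Chromosome 20 had 29 peaks in replicate 1 and 34 in replicate 2, or 5.40 and 6.33 per 100 protein-coding genes, the highest of each list. Chromosome 9 was the second in both, with 39 and 38 peaks or 5.01 and 4.88 per 100 genes. The medians over chromosomes were 3.14 and 1.99. Low values were on chromosome 22 (0.665 and 0.665, 3 peaks in each list), chromosome 21 (1.26 and 0), chromosome 12 (1.56 and 0.781) and chromosome 15 (2.27 and 0.324).

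Over the 22 chromosomes the values of the lists had a Pearson correlation of 0.83 and a Spearman correlation of 0.81, given as a description, since both libraries share the cell line. For members at gene ends alone these were 0.66 and 0.72, and for members away from ends 0.71 and 0.67. Among shorter one-list peaks at gene ends the correlations were −0.18 and 0.02 from 300 to 499 bp, and −0.10 and −0.01 below 300 bp. Narrow peaks away from ends, counted per megabase, shared their extremes between lists. Chromosome 15 was lowest (1.26 and 0.462) and chromosome 19 highest (2.73 and 2.12). Members per 100 genes had Pearson correlations of 0.36 and 0.37 with these values. The correlations were 0.42 and 0.46 with control replicate 1 peaks per megabase, and −0.38 and −0.08 with narrow gene-end peaks per 100 genes. A like order was therefore not shown to be particular to broad peaks.

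**Figure D4:**
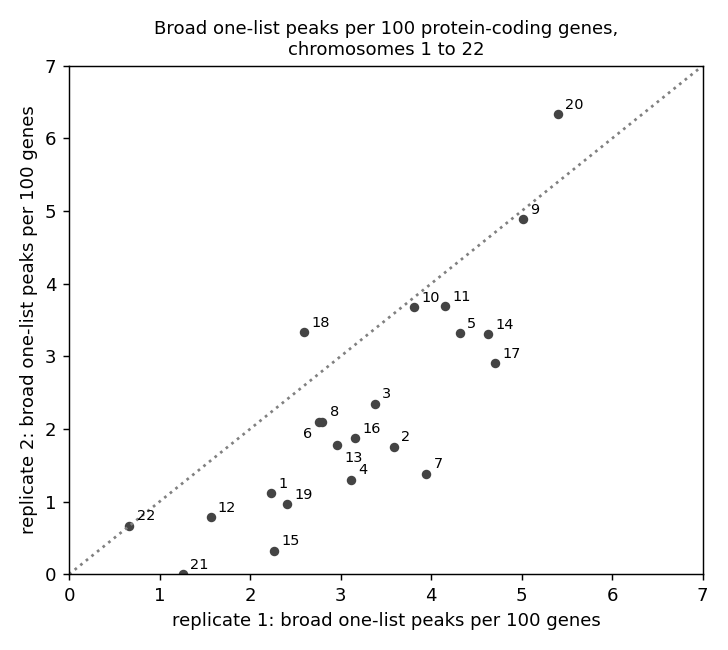
Broad one-list peaks per 100 protein-coding genes on each of chromosomes 1 to 22 in replicate 1 (horizontal) and replicate 2 (vertical); each point is a chromosome and the dotted line marks equal values. Chromosomes 20 and 9 are highest in both and chromosomes 22, 21 and 12 low in both.

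The promoters under the peaks were GC-rich. The RefSeq promoter table held 21156 windows of 300 bases for 15101 of the 19126 genes (79.0%) and for 704 of the 855 genes named by these peaks. Wholly inside a broad one-list peak were 263 windows of 235 genes in replicate 1 and 137 windows of 124 genes in replicate 2. Their median GC content was 74.0% and 75.3%, against 62.7% for all windows of the table, and their median number of CpG dinucleotides was 37 and 38 against 21. The 49 windows inside shared broad peaks had medians of 77.3% and 39, so high GC content was not particular to the one-list peaks. Windows of the nearest start site within 1 kb of a summit had a median GC content of 72.3% and 74.3% for broad one-list peaks. Shared broad peaks had 74.3% and 74.7% and narrow peaks 68.7% and 70.0%, so narrow peaks at start sites shared most of the shift. GC-rich DNA is sheared, amplified and sequenced with other efficiency than the rest, and the part of this in the peaks was not tested.

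**Figure D5:**
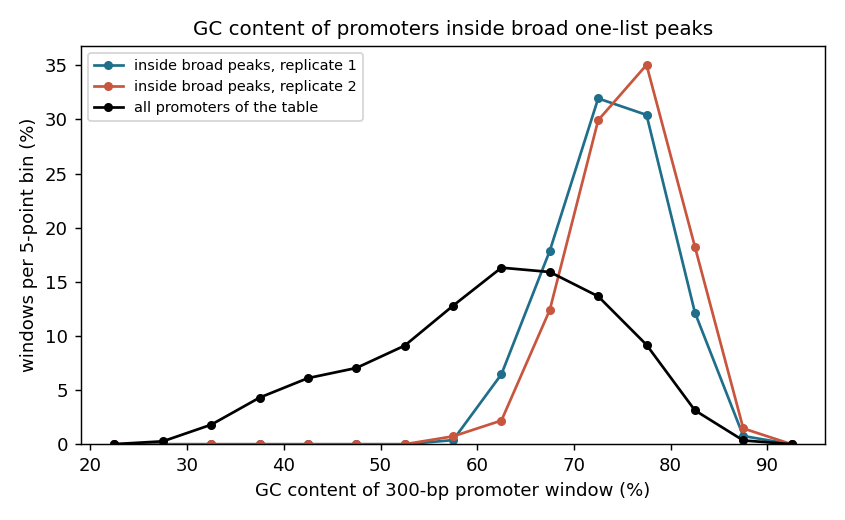
GC content of 300-base promoter windows (horizontal, %, bins of 5 points) as a share of windows (vertical, %), for windows wholly inside broad one-list peaks of each library and for all 21156 windows of the table. The windows inside the peaks have medians of 74.0% and 75.3% and lie right of the table's median of 62.7%.

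Motif matches were more or less frequent than in the table depending on the motif. A GC box, GGGCGG on either strand, was in 90.1% (exact 95% interval 85.9 to 93.4) and 83.9% (76.7 to 89.7) of the windows inside the peaks and in 56.6% of all windows. Windows inside shared broad peaks held one in 47 of 49 cases (95.9%, 86.0 to 99.5). The TATA box TATAAA was in 1.14% and 4.38% against 9.51%, and the AP-1 motif TGANTCA in 2.28% and 3.65% against 6.08%. CCAAT was in 28.5% and 19.7% against 34.4%. The ETS core CCGGAAG was in 14.8% and 19.7% against 12.9%, the core TGACG of the cyclic AMP response element in 35.4% and 32.8% against 27.7%, and the E-box CACGTG in 9.51% and 7.30% against 8.25%.

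The NF-kB motif, the element next to which NKRF was first described to act, was in 6.08% (3.52 to 9.69) and 10.2% (5.70 to 16.6) of the windows and in 6.56% of the table. Its intervals hold the table's share in both lists. Motif intervals cover counting error only and treat windows as separate, although 263 came from 235 genes and 137 from 124. They are not a test of a difference from the table, whose windows were not matched for GC content. All motifs were searched on both strands, none of them contains another, and a GC-rich motif is more frequent in GC-rich DNA whatever binds there. A match is a description of the letters.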

How the data were processed

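The authors called peaks in every NKRF library on its own, with 1 input library as background, per the file headers. For both si-Uc003xsl.1 libraries and control replicate 1 they used MACS 1.4.2 (p-value threshold 1e-04), and for control replicate 2 MACS 2.1.1.20160309 (q-value threshold 0.05). Bowtie2, GRCh38.p11 and CASAVA 1.4 are named per the submitters' processing notes, with alignment settings not given in the sources used here. Input libraries were not analysed here.

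The deposited values are the count of tags per peak, not normalized, the score of −10 log10 p, the fold enrichment over input as the authors' ratio, and the false discovery rate as a percent, per the file headers. In the list of control replicate 2 the authors deposited the pileup signal and −log10 values of p and q. Its peaks were used for position only.

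Summits were start + summit − 1. Gene ends came from RefSeq (GRCh38.p14, primary chromosomes, neighbours only), start sites and sequences from its promoter table, which lacks some genes and was used for no gene of chromosome 8, so start-site, strand and motif values leave out its 20 and 15 members. A peak was named by the protein-coding gene with an end within 1 kb, else by the gene containing it, else by the nearest end. Genes were named by fixed counts: the top 6 by tags, 4 by density, 4 by length and 3 by distance per list, the genes of both lists, at most 4 per gene list by tags, and 3 peaks on each side of the length limit. Other genes of the short lists were named to complete a count, after their values were seen. Members and lists were chosen with earlier results of these data known. Comparisons were taken within a library and tested by exact two-sided permutation over 2 libraries. With 2 libraries the p-value depends only on whether both differences have the same sign, so it measures neither their size nor their spread. Differences between libraries may be technical. Python 3.11.15, pandas 2.3.3, numpy 2.4.6 and scipy 1.17.1 were used, and scripts were tested on simulated data. The result of 1 gene list is not reported here.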

Additional observations from a re-analysis of the deposited data

Results flagged for a closer look

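Peaks of 500 bp or more also occurred outside chromosomes 1 to 22, which the comparisons above do not use: 5 in si-Uc003xsl.1 replicate 1 and 8 in replicate 2, against 0 such peaks anywhere in the control lists. In replicate 1 these were 3 on the X chromosome and 2 on scaffolds, and in replicate 2 they were 5 on the mitochondrial genome and 3 on scaffolds.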

How the results depend on the processing

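The difference in gene-end share from narrow peaks was positive under every alternative tried (43.7 to 61.9 points, and 54.8 to 62.6 leaving out a library), with a permutation p of 0.5 wherever both libraries entered, the smallest that design allows. The number of peaks was 404 at 750 bp, 140 at 1000 bp, 338 at a score of at least 60, and 419 to 624 leaving out a library. The share at gene ends was 57.8% within 500 bp, 79.1% within 2 kb, 77.9% with all gene types, 66.7% from 400 bp, 73.5% from 750 bp and 69.5% at a score of at least 60. The median distance was 452 bp from 400 bp and 426.5 bp at a score of at least 60. Genes in both lists numbered 1 within 500 bp, 11 within 2 kb and 1 from 750 bp. Tags per kb moved by less than the spread between lists (49.3 to 59.0 leaving out a library). Leaving out the 2 densest peaks was chosen after seeing the data. No paired analysis was possible because no value was compared between control and si-Uc003xsl.1 libraries of the same replicate number, and differences between kinds of peak were already taken within a library. Filtered tags differed between the libraries, and tags outside called peaks were not used, so a place missing from a list may still hold tags.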
